A study of Mus musculus with 8 samples.

Results

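Notch signalling passes a message between touching cells. A ligand of the Delta or Jagged type on the sending cell binds a Notch receptor on its neighbour, proteases release the intracellular part of the receptor, and that fragment enters the nucleus and joins the DNA-binding protein Rbpj, which turns from a repressor into an activator of target genes such as those of the Hes and Hey families. The pathway is known for choosing between fates in early neural and mesodermal tissue, and its receptors and ligands are also made in mouse embryonic stem (ES) cells, which are grown from the early embryo and can give rise to every tissue.

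The account covers 10 genes chosen by name from this pathway: the ligand genes Dll1, Dll3 and Jag1, the receptor genes Notch1, Notch2, Notch3 and Notch4, the nuclear effector Rbpj, and the target genes Hes1 and Hey1. All 10 were measured, by 19 probe sets, among 18193 genes on the array. A probe set is a group of oligonucleotides for 1 transcript region, and of several for a gene the one with the highest mean log2 value was used. RNA of 8 samples was hybridised to 1 array each. The groups were a Jmjd2b knockdown (3 arrays), a Jmjd2c knockdown (2 arrays) and a control hairpin against GFP (3 arrays). Jmjd2b (symbol Kdm4b) and Jmjd2c (Kdm4c) are demethylases of histone H3, and the study asks what they do for the identity of ES cells. All 3 groups were male ES cells of strain 129S4/Svjae in medium with leukemia inhibitory factor, and all had received a lentiviral short hairpin RNA, puromycin selection and further passages. No label says whether replicates were separate infections or cultures, or how many hairpin sequences were used per gene, so p-values reflect the spread among these arrays alone, and that spread may be technical.

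The array medians lay between 44.7 and 46.6 intensity units, and the median level of all genes was 103.0. Kdm4b stood at 10.8%, 6.27% and 3.64% of the mean of the controls on the 3 Jmjd2b knockdown arrays. Kdm4c stood at 11.1% and 36.7% of it in Jmjd2c knockdown arrays 1 and 2, and at 58.7%, 62.5% and 50.8% on the Jmjd2b knockdown arrays, below every control but not past the test (limma, adjusted p = 0.102). On 3 arrays (Jmjd2b knockdown 2, control 1 and control 2) 412 to 455 values stood at exactly 1, a floor that the other 5 arrays did not have. Identical values were also more frequent in 2 sets of arrays, at 0.588% to 0.605% among both Jmjd2c knockdown arrays and Jmjd2b knockdown array 3, and at 0.448% between Jmjd2b knockdown array 1 and control array 3. Any other pair had at most 0.0776%. The first of these sets holds no control. The ratio of 3' to 5' actin probe sets, which rises with RNA degradation, lay between 1.31 and 1.42 in the Jmjd2b knockdown, at 1.48 and 1.43 in the Jmjd2c knockdown and between 1.45 and 1.63 in the control. The part of this ratio in the results was not tested.

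Of the labelled cell type, all 6 ES cell markers were measured above the median level. Their summed intensity lay between 36379 and 39886 in the Jmjd2b knockdown, at 40177 and 40809 in the Jmjd2c knockdown and between 46760 and 47401 in the control, and in the Jmjd2b knockdown 4 of the 6 fell (Sox2, Nanog, Zfp42 and Dppa5a), where 24.4% of all genes and 37.1% of those above the median level changed. In the Jmjd2c knockdown 1 of the 6 fell (Zfp42), where 9.53% of all genes changed. Of 7 neural markers, which mark a tissue where Notch acts, Nes and Pax6 rose in the Jmjd2b knockdown (28.6%, against 24.4% of all genes). Pax6 rose in the Jmjd2c knockdown (14.3%, against 9.53% of all genes). Sox1 (means of 66.3 in the Jmjd2b knockdown and 142 in the control) and Tubb3 (242 and 397) lay below every control there but did not pass. Neurod1 overlapped the controls in both knockdowns, and the proneural genes Neurog1 and Neurog2 had means under 16 in every group. The summed neural markers ranged from 964 to 1482 in the Jmjd2b knockdown, from 862 to 1612 in the Jmjd2c knockdown and from 1014 to 1169 in the control. None of the 5 markers of presomitic mesoderm and none of the 6 endothelial markers lay above the median level of all genes. Summed, they ranged from 130.5 to 143 and from 158 to 259 in the Jmjd2b knockdown, from 123.5 to 149.7 and from 276 to 290.5 in the Jmjd2c knockdown, and from 149 to 177 and from 242 to 294 in the control. Mesp2 fell in both knockdowns (20.0% of its list) and Pecam1 in the Jmjd2b knockdown (16.7%). Of all genes 24.4% passed in the Jmjd2b and 9.53% in the Jmjd2c knockdown. The other markers of both lists did not pass. Over all 8 arrays the brightest markers of their lists were Neurod1, Mesp1, Pecam1, Vim and, of the ES cell list, Dppa5a. Of 10 fibroblast markers 2 rose (Col1a1 and S100a4, with control means under 16) and 2 fell (Thy1 and Pdgfrb) in the Jmjd2b knockdown. Thy1 and Pdgfrb also fell in the Jmjd2c knockdown. That is 40.0% and 20.0% of the list, where 24.4% and 9.53% of all genes passed. The fibroblast sum lay between 5740 and 6466 in the Jmjd2b knockdown, between 6018 and 7424 in the Jmjd2c knockdown and between 4875 and 5992 in the control. Most of this sum is Vim, with means of 5744, 6290 and 4922 in the same order of groups. Vim did not pass in either knockdown. In RNA of a whole culture, fewer cells of a type and less RNA per cell cannot be told apart, and the part of other cell types in the results below was not tested.

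Promoters are shown for 4 of the 6 genes that changed in the Jmjd2b knockdown, the receptors Notch2 and Notch3 and the ligand Jag1, which rose, and Rbpj, which fell. Those of Dll3 and Notch4 are left out for length. Each is the 250 bases before the start of transcription on the gene's own strand, from RefSeq (GRCm38.p6), at chr3:98013288-98013537 on the plus strand for Notch2, chr17:32166891-32167140 on the minus strand for Notch3, chr2:137116521-137116770 on the minus strand for Jag1 and chr5:53590096-53590345 on the plus strand for Rbpj. Capitals mark TGGGAA, the core letters of the Rbpj site, and GGGCGG, the GC box bound by Sp and Klf factors, both searched on both strands (reverse complements TTCCCA and CCGCCC). Jag1 holds neither.
Notch2: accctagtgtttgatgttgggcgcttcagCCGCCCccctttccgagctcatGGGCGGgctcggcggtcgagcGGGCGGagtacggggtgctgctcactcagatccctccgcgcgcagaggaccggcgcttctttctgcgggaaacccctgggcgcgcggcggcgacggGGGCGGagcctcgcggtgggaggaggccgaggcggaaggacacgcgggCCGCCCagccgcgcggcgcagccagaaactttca
Notch3: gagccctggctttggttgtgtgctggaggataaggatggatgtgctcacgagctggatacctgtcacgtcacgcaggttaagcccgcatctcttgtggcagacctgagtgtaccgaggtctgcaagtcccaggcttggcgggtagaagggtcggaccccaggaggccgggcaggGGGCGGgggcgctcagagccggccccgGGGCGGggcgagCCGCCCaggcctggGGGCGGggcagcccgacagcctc
Jag1: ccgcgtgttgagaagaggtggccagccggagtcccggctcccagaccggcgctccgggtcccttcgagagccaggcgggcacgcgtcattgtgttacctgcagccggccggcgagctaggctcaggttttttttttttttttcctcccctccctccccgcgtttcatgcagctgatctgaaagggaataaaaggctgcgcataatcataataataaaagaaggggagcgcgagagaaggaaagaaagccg
Rbpj: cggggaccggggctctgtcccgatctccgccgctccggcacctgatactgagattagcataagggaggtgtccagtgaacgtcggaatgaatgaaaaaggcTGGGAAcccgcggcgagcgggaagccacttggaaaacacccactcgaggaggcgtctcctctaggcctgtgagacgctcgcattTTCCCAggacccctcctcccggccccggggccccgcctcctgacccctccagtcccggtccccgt
Of the 10 genes, 8 matched the promoter table, with 10 promoters in all. Hes1 and Hey1 did not match. TGGGAA was found in the promoters of 1 of these 8 genes, Rbpj, whose 2 listed starts give overlapping windows that share a match, against 21.6% of 32851 promoters of the same length. In the Rbpj promoter shown the matches begin 149 and 65 bases before the start. The longer GTGGGAA, which contains TGGGAA, was found in 0 of the 10, against 5.42% of all promoters. GGGCGG was found in 4 of the 10 (Notch1 and Notch2 with 5 matches each, Notch3 with 4 and Dll3 with 1), against 32.7% of all. The share of G and C in the 10 promoters lay between 52.0% and 72.0%, where the median promoter had 52.4%. These matches describe letters and not binding.

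In the Jmjd2b knockdown the ligand and receptor genes did not move as a block. Jag1, Dll3, Notch2 and Notch3 rose by between 1.55-fold and 2.64-fold, Notch4 fell to 0.471-fold and Rbpj to 0.657-fold, and Notch1, Dll1, Hes1 and Hey1 did not pass the test (limma on log2(intensity + 16), 1 model of the 3 groups over all genes, Benjamini-Hochberg adjusted p under 0.05). Folds on this scale understate changes of dim genes. Thus 6 of 10 genes passed, where 24.4% of all genes did. The 10 genes were chosen with earlier results of these data known, so the shares given here are a description and not a test. Of the 10, 4 were called higher and 2 lower, against 11.5% and 12.9% of all genes. An unadjusted p under 0.05 was found for 8 of the 10, against 35.4% of all genes. Of genes above the median level 37.1% passed, and 9 of the 10 members are above it, 5 of them called. The arrays of both groups did not overlap in 8 of the 10, against 44.8% of all genes. The median change of the 10 was -0.11 on the log2 scale, against -0.03 over all genes. When each array was left out in turn, the same 6 genes passed in all 8 fits.

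**Figure D1:**
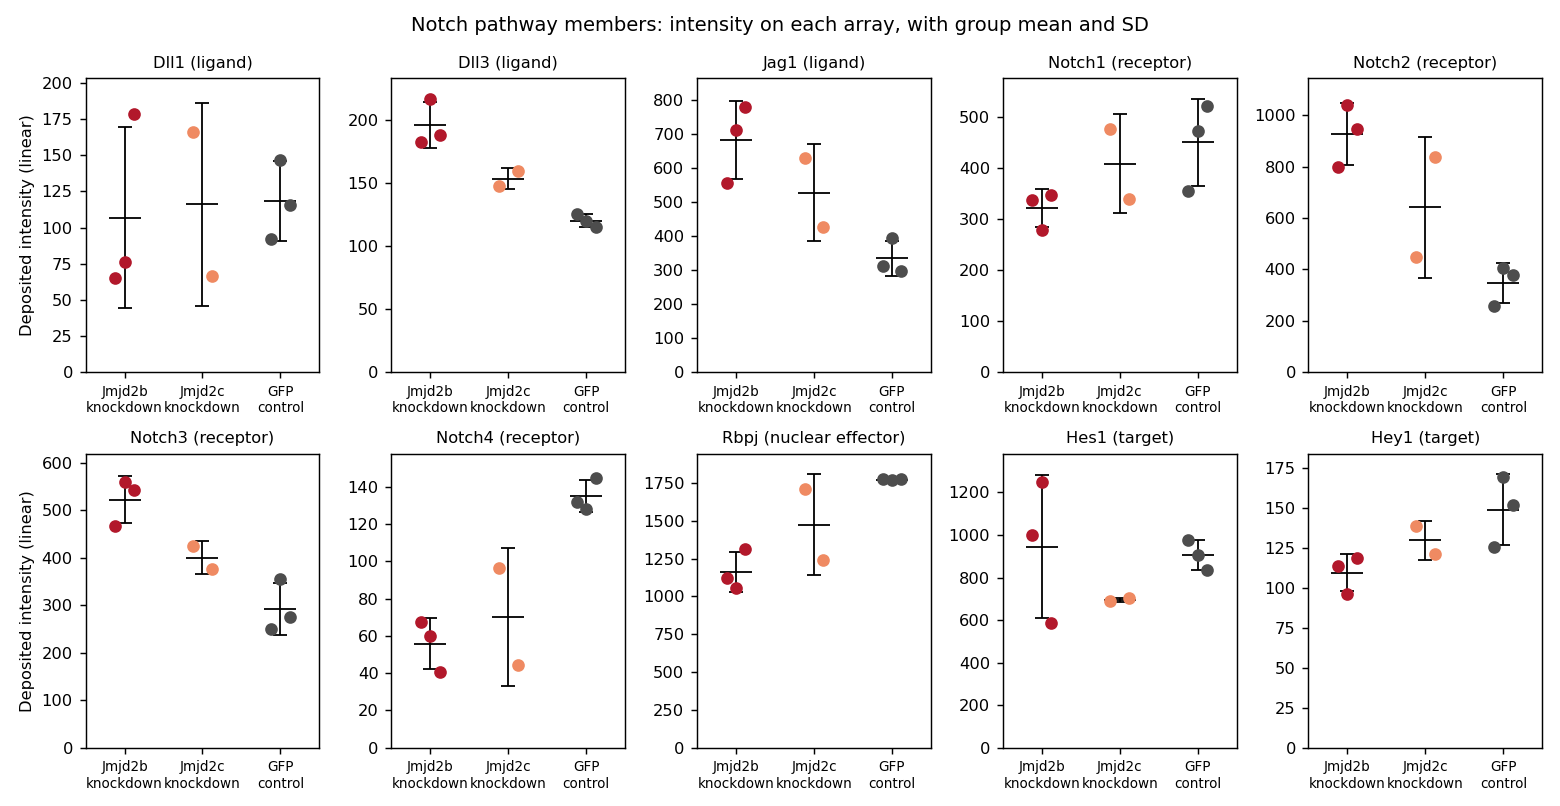
Deposited intensity (linear scale, vertical axis from 0) of each of the 10 genes on every array, with 1 point per array, the group mean as a horizontal line and the SD as the error bar, for the Jmjd2b knockdown (n = 3), the Jmjd2c knockdown (n = 2) and the GFP hairpin control (n = 3). The Jmjd2b knockdown points lie above all control points for Dll3, Jag1, Notch2 and Notch3 and below them for Notch1, Notch4, Rbpj and Hey1.

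Among the ligands, Jag1, which codes for Jagged1, had intensities of 557, 712 and 779.7 in the Jmjd2b knockdown, against 312.5, 394 and 299 in the control. All 3 knockdown arrays lay above all 3 controls. On the log2 scale Jag1 changed by 0.99 ± 0.18 (SE; limma, adjusted p = 0.00368). A further Jag1 probe set, with means of 251 ± 36.4 in the Jmjd2b knockdown and 136 ± 20.2 in the control (SD, n = 3 each), changed by 0.81 ± 0.17 (SE) and passed when every probe set was tested on its own (limma, adjusted p = 0.00709). The last of the Jag1 probe sets was dim (34.1 ± 11.4 and 30.0 ± 2.59) and did not pass.

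Dll3, a Delta protein that acts inside the cell and is known to dampen Notch signals, stood at 183.0, 217 and 188 in the Jmjd2b knockdown, against 125, 119.8 and 115 in the control. The groups did not overlap, and the change was 0.64 ± 0.13 (SE; limma, adjusted p = 0.00523). Dll1, the Delta ligand of presomitic mesoderm and neural progenitors, had 65.2, 76.3 and 179 in the Jmjd2b knockdown, against 91.9, 147 and 116 in the control. Its Jmjd2b knockdown arrays lay on both sides of the controls, array 3 above them and arrays 1 and 2 below. The interval of its change, from -1.04 to 0.59 (95% confidence, log2 scale), allows a fall or a rise (limma, adjusted p = 0.717).

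Among the receptors, Notch2 had the largest change of the 10 genes. It stood at 798, 1040.0 and 946 in the Jmjd2b knockdown, against 257, 405 and 377 in the control, a log2 change of 1.40 ± 0.24 (SE; limma, adjusted p = 0.00227). The lowest knockdown array was above the highest control. The other Notch2 probe set had means of 6.05 in the Jmjd2b knockdown and 5.71 in the control, both under the pseudocount of 16, and did not pass.

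Notch3, a receptor best known from smooth muscle of vessels, had 466, 559 and 542 in the Jmjd2b knockdown, against 249, 354 and 274 in the control. It changed by 0.81 ± 0.15 (SE; limma, adjusted p = 0.00364), with no overlap of the groups. Its probe set is of a type that can detect related transcripts. The other, dimmer Notch3 probe set (48.9 ± 2.95 in the Jmjd2b knockdown and 34.0 ± 3.94 in the control, SD, n = 3 each) changed by 0.38 and did not pass (limma, adjusted p = 0.0959 with every probe set tested on its own), so the call rests on 1 probe set.

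Notch4, a receptor of endothelium, moved the other way. It had 67.3, 59.8 and 40.4 in the Jmjd2b knockdown, against 132, 128 and 144 in the control, a change of -1.09 ± 0.23 (SE; limma, adjusted p = 0.00749). All knockdown values were below all control values and below the median level of all genes. Both further Notch4 probe sets were dim (24.5 and 28.9 in the Jmjd2b knockdown, 36.8 and 36.3 in the control) and did not pass, with changes of -0.38 and -0.22. With the sets of arrays that share identical values as a block, Notch4 changed by -0.94 and did not pass (limma, adjusted p = 0.0573). Of the 6 endothelial markers Pecam1 fell with Notch4, at means of 63.5 in the Jmjd2b knockdown and 136 in the control, while Tek had 85.7 and 66.9, Cdh5 20.4 and 22.1, Kdr 12.3 and 22.4, and Tie1 and Erg were under 16 in both groups. The part of endothelial RNA in the fall of Notch4 was not tested.

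Notch1, a receptor with wide roles in early tissues, had 337, 279 and 348 in the Jmjd2b knockdown, against 356, 473 and 523 in the control. Every knockdown array was below every control, with a change of -0.46 ± 0.18 (SE), but it did not pass (limma, adjusted p = 0.0962). It passed, at a lowest adjusted p of 0.0435, with only both groups compared in the limma fit, without either Jmjd2c knockdown array or without control array 1. A second Notch1 probe set changed by -0.21 and did not pass.

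Rbpj, through which all Notch receptors act in the nucleus, had 1121, 1059 and 1312 in the Jmjd2b knockdown, against 1774, 1769 and 1774 in the control. The controls lay within a few units of each other and above all knockdown arrays, and the change was -0.61 ± 0.13 (SE; limma, adjusted p = 0.00713). A second Rbpj probe set (751 ± 27.8 in the Jmjd2b knockdown and 949.98 ± 51.9 in the control, SD, n = 3 each) also passed on its own, with a change of -0.33 (limma, adjusted p = 0.0298). The third changed by -0.55 and did not pass (limma, adjusted p = 0.0702).

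The target genes did not pass. Hes1, a repressor of the basic helix-loop-helix family whose level is known to oscillate in ES cells, had 998, 1249.9 and 587 in the Jmjd2b knockdown, against 976, 907 and 836 in the control. The knockdown arrays enclosed the controls, with an SD of 335 in the knockdown and 70.0 in the control (n = 3 each). The interval of the change ran from -0.50 to 0.50 (95% confidence, log2 scale; limma, adjusted p = 0.993). Hey1, a related repressor, had 114, 96.6 and 119 in the Jmjd2b knockdown, against 126, 169.8 and 152 in the control. All knockdown arrays were below all controls, with a change of -0.39 ± 0.15 (SE), which did not pass (limma, adjusted p = 0.0874).

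**Figure D2:**
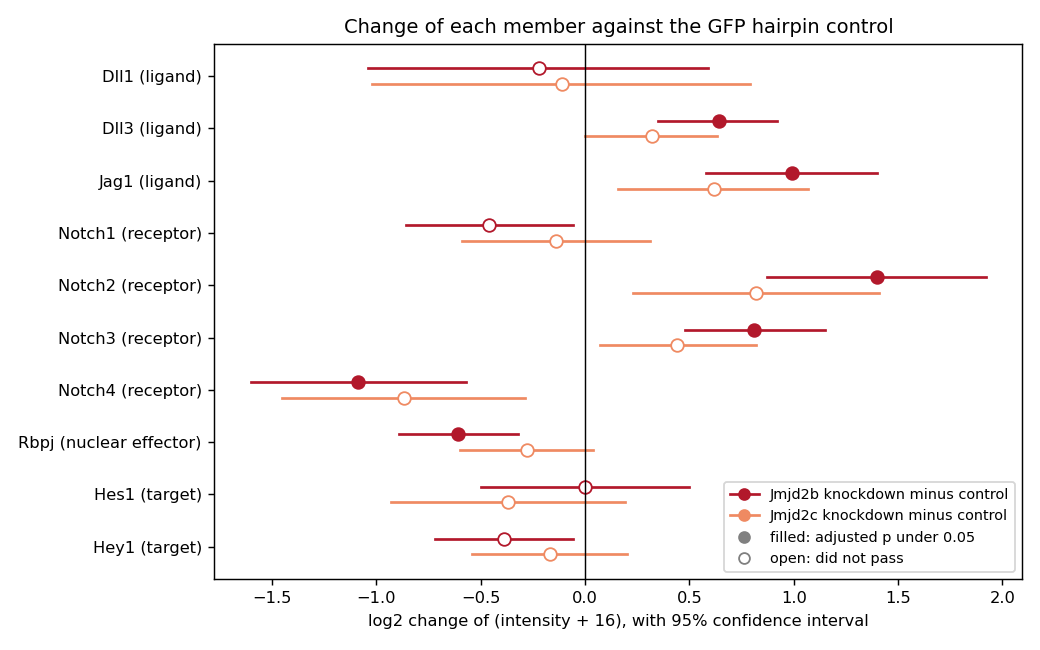
Change of each of the 10 genes on the log2(intensity + 16) scale (horizontal axis), with its 95% confidence interval, in the Jmjd2b knockdown (upper mark of each pair) and the Jmjd2c knockdown (lower mark), each minus the GFP hairpin control. Filled marks passed an adjusted p under 0.05, which 6 genes did in the Jmjd2b knockdown and 0 in the Jmjd2c knockdown.

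The comparison was repeated within the array types. Among the arrays with a floor at 1 (1 Jmjd2b knockdown array, 2 controls) the log2 changes were 1.64 for Notch2, 0.99 for Jag1, 0.88 for Notch3, 0.75 for Dll3, -0.73 for Rbpj and -0.94 for Notch4. Of these only Notch2 passed in limma, in a fit where the lone Jmjd2b knockdown array is assumed to vary like the controls. Among the arrays without the floor (2 Jmjd2b knockdown arrays, 1 control) they were 1.17, 1.10, 0.84, 0.62, -0.54 and -1.23 in the same order of genes, and 0 passed, in a fit where 99 of all genes did and where the lone control is assumed to vary like the other groups. With array type as a block all 6 passed again.

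**Figure D3:**
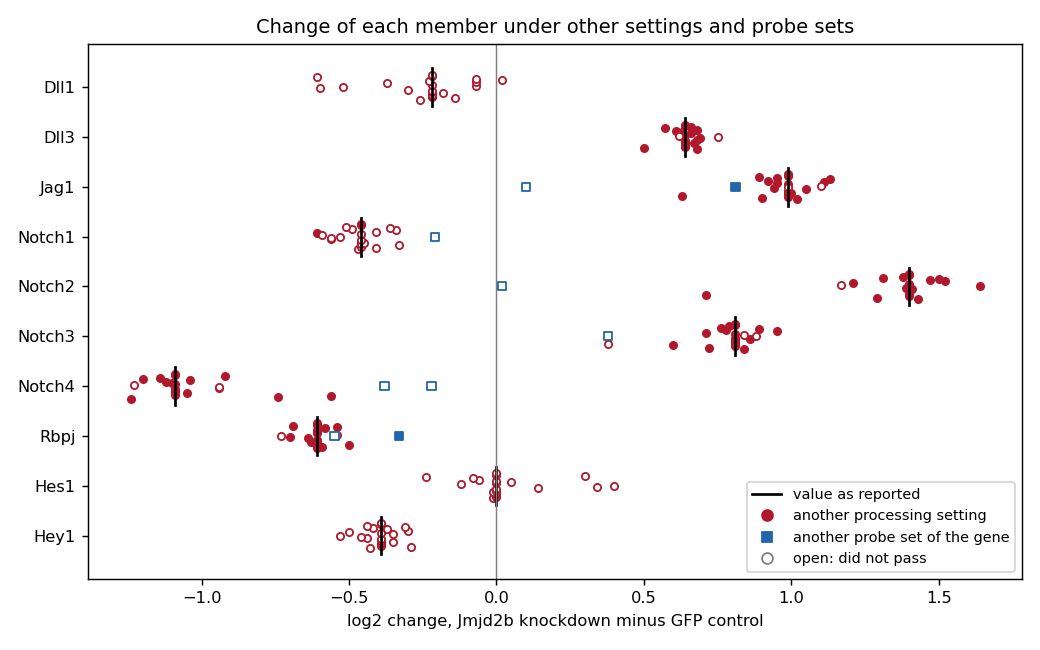
Log2 change of each of the 10 genes in the Jmjd2b knockdown minus the GFP hairpin control (horizontal axis) as reported (black line), under other processing settings, arrays left out included (circles), and for the further probe sets of the same gene (squares). Filled marks passed. The 6 called genes keep their sign under every setting and probe set drawn, while Hes1 lies on both sides of 0.

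In the Jmjd2c knockdown 0 of the 10 genes passed (limma), where 9.53% of all genes did (4.28% higher and 5.25% lower, and 15.5% of genes above the median level). At an unadjusted p under 0.05 there were 5 (Notch2, Notch3, Notch4, Dll3 and Jag1), where 23.9% of all genes had such a p. The groups did not overlap in 7 of the 10, against 38.6% of all genes. The same 3 controls enter both comparisons, so the values of the knockdowns are given side by side and are not independent.

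Notch2 had 448 and 837 in Jmjd2c knockdown arrays 1 and 2, against 257, 405 and 377 in the control. Both knockdown arrays were above all controls, and the change was 0.82 ± 0.26 (SE; limma, adjusted p = 0.0813). Notch3 had 424 and 375 in the Jmjd2c knockdown, against 249, 354 and 274 in the control, with a change of 0.44 ± 0.17 (SE; limma, adjusted p = 0.137). Its Jmjd2c knockdown mean of 399.8 lay between the 522 of the Jmjd2b knockdown and the 293 of the control. Jag1 had 629 and 427 in the Jmjd2c knockdown, against 312.5, 394 and 299 in the control, with a change of 0.62 ± 0.20 (SE; limma, adjusted p = 0.0919). Dll3 had 148 and 159 in the Jmjd2c knockdown, against 125, 119.8 and 115 in the control, with a change of 0.32 ± 0.14 (SE; limma, adjusted p = 0.208). For both ligand genes the 2 knockdown arrays lay above every control.

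Notch4 had 96.4 and 44.1 in the Jmjd2c knockdown, against 132, 128 and 144 in the control, a change of -0.87 ± 0.26 (SE; limma, adjusted p = 0.0638). Rbpj had 1711 and 1238 in the Jmjd2c knockdown, against 1774, 1769 and 1774 in the control, a change of -0.28 ± 0.14 (SE; limma, adjusted p = 0.273). Both genes were below all controls in both knockdown arrays, array 1 much closer to them than array 2. Hes1 had 689 and 702 in the Jmjd2c knockdown, against 976, 907 and 836 in the control. Both arrays were below all controls, but the change of -0.37 ± 0.25 (SE) did not pass (limma, adjusted p = 0.422). For Notch1 (477 and 339.9), Hey1 (139 and 122) and Dll1 (166 and 66.2) the Jmjd2c knockdown arrays overlapped the controls, and the changes were -0.14, -0.17 and -0.11 on the log2 scale.

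The 2 Jmjd2c knockdown arrays differed from each other in these genes. Array 2, which kept more Kdm4c (469 against 142 in array 1), had the higher Notch2 and the lower Notch1, Notch4, Rbpj and Dll1, and array 1 had the higher Jag1 and Notch3. Kdm4b stood at 245 in array 1 and 285 in array 2, against a control mean of 468. Without array 1, in a limma fit where the lone array is assumed to vary like the other groups, 3 of the 10 genes passed, namely Notch2 (1.26), Notch4 (-1.32) and Rbpj (-0.51). Without array 2 only Jag1 passed (0.89), and the change of Notch2 was 0.38. What the Jmjd2c comparison shows for Notch2, Notch4, Rbpj and Jag1 is therefore set by which of the 2 arrays is kept.

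Between the knockdowns, Jmjd2c minus Jmjd2b, 0 of the 10 genes passed (limma), where 0.467% of all genes and 0.781% of those above the median level did, and 2 (Dll3 and Rbpj) had an unadjusted p under 0.05, where 13.0% of all genes did. The arrays did not overlap for Notch3, Dll3 and Hey1, 3 of the 10, against 27.1% of all genes. The differences and their 95% intervals were -0.58 (-1.16 to 0.01) for Notch2, -0.37 (-0.83 to 0.08) for Jag1, 0.33 (0.01 to 0.64) for Rbpj and 0.21 (-0.37 to 0.79) for Notch4. For Dll3 the difference was -0.32, with means of 154 in the Jmjd2c knockdown and 196 in the Jmjd2b knockdown. For Notch2 the interval reaches from about no difference to a level lower in the Jmjd2c knockdown by more than a factor of 2, and for Rbpj and Dll3 it lies just beside 0 before adjustment, so the knockdowns were neither shown to differ in these genes nor shown to act alike. Dll1 had the widest interval of the 10, from -0.80 to 1.02.

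A wider list of 59 pathway genes was read in 7 groups by role, of which 55 were measured and 4 were not analysed here. In the Jmjd2b knockdown 10 rose and 7 fell, or 30.9%, near the 24.4% of all genes, with a median change of 0.06 on the log2 scale against -0.03 over all genes. In the Jmjd2c knockdown 3 rose and 3 fell, or 10.9%, near the 9.53% of all genes, with a median of 0.05 against -0.02. Between the knockdowns 0 passed (limma), where 0.467% of all genes did, and 5 had an unadjusted p under 0.05, where 13.0% of all genes did. The share of the wider pathway that passed was thus close to that of the array as a whole.

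Of 5 other ligands, Dner, a neuronal membrane protein reported to bind Notch1, had 95.7, 77.0 and 126 in Jmjd2b knockdown cells, 128 and 145 in Jmjd2c knockdown cells, against 468, 319.9 and 342 in the control. Both knockdowns lay far below every control, with log2 changes of -1.77 ± 0.19 (SE; limma, adjusted p = 2.65e-04) and -1.35 ± 0.22 (adjusted p = 0.00701). Dlk1, an imprinted gene for a ligand without the domain that activates receptors, passed in the Jmjd2b knockdown at a dim level (41.7 in the knockdown, 17.3 in the control), but its sign turned, to -0.13, without probe sets that can detect related genes, and its call was also lost with the mean of all probe sets (0.34) and with shared-value sets as a block (0.69).

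The 8 other genes listed as targets were Nrarp and further members of the Hes and Hey families. Whether each responds to Notch in these cells was not tested. Hes6, a family member known to oppose Hes1, had 916, 921 and 1037 in Jmjd2b knockdown cells, 1005 and 662 in Jmjd2c knockdown cells, against 507.6, 445 and 407 in the control. No array of either knockdown overlapped the controls, and the changes were 1.06 ± 0.16 (SE; limma, adjusted p = 0.00119) and 0.83 ± 0.18 (adjusted p = 0.0189). The Jmjd2c call was lost without control array 2 (0.82; limma, adjusted p = 0.0512) or 3 (0.76, adjusted p = 0.0884). It was also lost without probe sets that can detect related genes (0.41) and with the mean of all probe sets (0.62). The same held with only the compared groups (0.83) and with array type as a block (0.88). Hey2 fell in the Jmjd2b knockdown at a dim level, with 19.7, 31.6 and 35.3 in the knockdown, against 70.2, 54.7 and 56.6 in the control (-0.78 ± 0.22, SE; limma, adjusted p = 0.0265), a call that was lost without any 1 control (-0.69, -0.84 and -0.82) or Jmjd2b knockdown array 1 or 2 (-0.63 and -0.83), and with array type (-0.74) or shared-value sets (-0.85) as a block. Hes5, the other classical target in neural progenitors, stayed dim (13.1 in the Jmjd2b knockdown, 22.2 in the Jmjd2c knockdown and 15.3 in the control) and did not pass. Nrarp, a feedback inhibitor of Notch, had 131 in the Jmjd2b knockdown, 107 in the Jmjd2c knockdown and 106 in the control and did not pass either. Its Jmjd2b knockdown arrays lay above every control (0.28; limma, adjusted p = 0.181). A second, dimmer Nrarp probe set had 81.57, 75.34 and 67.05 in the Jmjd2b knockdown, against 57.24, 48.35 and 53.59 in the control. In the Jmjd2c knockdown that probe set had 44.86 and 42.52, below every control.

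Among 11 measured genes listed as corepressors, 4 rose and 1 fell in the Jmjd2b knockdown (45.5%). Of all genes 24.4% passed, and 37.1% of those above the median level, as 10 of the 11 are. One of the rises, Hdac1 (0.20), was lost with the replicate number as a block (limma, adjusted p = 0.0502). Ctbp1 had 2028, 2219.7 and 2241 in Jmjd2b knockdown cells, 1865 and 2286 in Jmjd2c knockdown cells, against 1390.1, 1488 and 1344 in the control. The changes were 0.61 ± 0.10 (SE; limma, adjusted p = 0.00165) and 0.55 ± 0.11 (adjusted p = 0.0148). The Jmjd2c call was lost without control array 3 (0.52, adjusted p = 0.0732) or Jmjd2c knockdown array 2 (0.40, adjusted p = 0.0518), and with only the compared groups (adjusted p = 0.0523). Ctbp2 rose by 0.44 ± 0.08 in the Jmjd2b knockdown (SE; limma, adjusted p = 0.00332). Tle4, of the Groucho family, had 1841, 1922 and 1865 in Jmjd2b knockdown cells, 2093 and 2167 in Jmjd2c knockdown cells, against 1027, 1373 and 1241 in the control. It rose in both, by 0.63 ± 0.11 (SE; limma, adjusted p = 0.00241) and 0.81 ± 0.12 (adjusted p = 0.00534), and passed with any single array left out. The 1 that fell, Tle1 of the same family, had 305, 303 and 353 in Jmjd2b knockdown cells, against 459, 400 and 444 in the control. Tle1 changed by -0.42 ± 0.12 (SE; limma, adjusted p = 0.0265). That call was lost without control array 1 or 3 or Jmjd2b knockdown array 1 or 2. It was also lost with shared-value sets as a block (-0.49) and with the mean of all probe sets (-0.22). In the Jmjd2c knockdown Tle1 had 469 and 476, above every control, and did not pass.

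Of 6 measured coactivators 1 rose and 1 fell in the Jmjd2b knockdown (33.3%, where 24.4% of all genes passed). Maml1, the Mastermind protein that docks on the fragment of Notch bound to Rbpj, changed by 0.65 ± 0.13 (SE; limma, adjusted p = 0.0044), and by 0.27 without probe sets that can detect related genes and 0.20 with the mean of all probe sets, with no call in either. The acetyltransferase gene Kat2b had 747.5, 667 and 988 in Jmjd2b knockdown cells, 529 and 976 in Jmjd2c knockdown cells, against 1543, 1364 and 1467 in the control. Its changes were -0.87 ± 0.21 (SE; limma, adjusted p = 0.0141) and -1.0 ± 0.24 (adjusted p = 0.0285). Its Jmjd2b call was lost without control array 1 or 3 or Jmjd2b knockdown array 1 or 2 (-0.83, -0.86, -0.83 and -0.75, adjusted p between 0.0506 and 0.0663 in limma). Its Jmjd2c call was lost without any 1 control (-0.96, -1.05 and -1.0) or Jmjd2c knockdown array 1 (-0.57), and with the replicate number (-0.92) or array type (-1.13) as a block, the mean of all probe sets (-0.55) or only the compared groups (-1.0).

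Among 12 genes of endocytosis and turnover 1 rose and 3 fell in the Jmjd2b knockdown (33.3%). Of all genes 24.4% passed, and 37.1% of those above the median level, as 11 of the 12 are. Dtx1, a ubiquitin ligase of the Deltex family that binds Notch inside the cell, had 216, 129 and 168 in Jmjd2b knockdown cells, 322 and 74.4 in Jmjd2c knockdown cells, against 603, 489 and 679 in the control. It changed by -1.71 ± 0.40 (SE; limma, adjusted p = 0.0112) and -1.78 ± 0.44 (adjusted p = 0.0341). The first call was lost on leaving out control array 3 (-1.61) or Jmjd2b knockdown array 2 (-1.54) and with shared-value sets as a block (-1.79). The Jmjd2c call was lost in 7 of 8 fits with 1 array left out, the exception being Jmjd2c knockdown array 1, with a change of -0.83 without Jmjd2c knockdown array 2 and -2.73 without array 1, and also with only the compared groups (-1.78), array type as a block (-2.06) or no trend (-1.78). Mib2, a ligase that starts uptake of Notch ligands, changed by -0.79 ± 0.18 in the Jmjd2b knockdown (SE; limma, adjusted p = 0.0102). Its only probe set is of a type that can detect related transcripts, so Mib2 was not tested without such probe sets. The 8 measured proteases and the 5 sugar transferases that modify the receptors had 1 call each in the Jmjd2b knockdown, Adam17 (0.58) and Rfng (0.42). That is 12.5% and 20.0%, where 24.4% of all genes passed. In the Jmjd2c knockdown they had 0, where 9.53% of all genes passed. At an unadjusted p under 0.05 there were 1 protease and 0 transferases in the Jmjd2c knockdown, against 23.9% of all genes. The Adam17 call was lost without control array 1 (0.43) or 3 (0.56) or Jmjd2b knockdown array 2 (0.48) or 3 (0.51), with array type (0.63) or shared-value sets (0.55) as a block, and with no trend (0.58). The call of Rfng was lost with the replicate number as a block (limma, adjusted p = 0.0559). Rfng and Hdac1 were also both lost without control array 1 or 3 or any 1 Jmjd2b knockdown array (0.37 to 0.44 for Rfng and 0.18 to 0.21 for Hdac1) and with array type or shared-value sets as a block, Rfng also with the mean of all probe sets (0.25) and Hdac1 with no trend. With the shared-value sets as a block, 0 of the 55 genes passed in the Jmjd2c knockdown (limma), where 6 of all genes did.

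**Figure D4:**
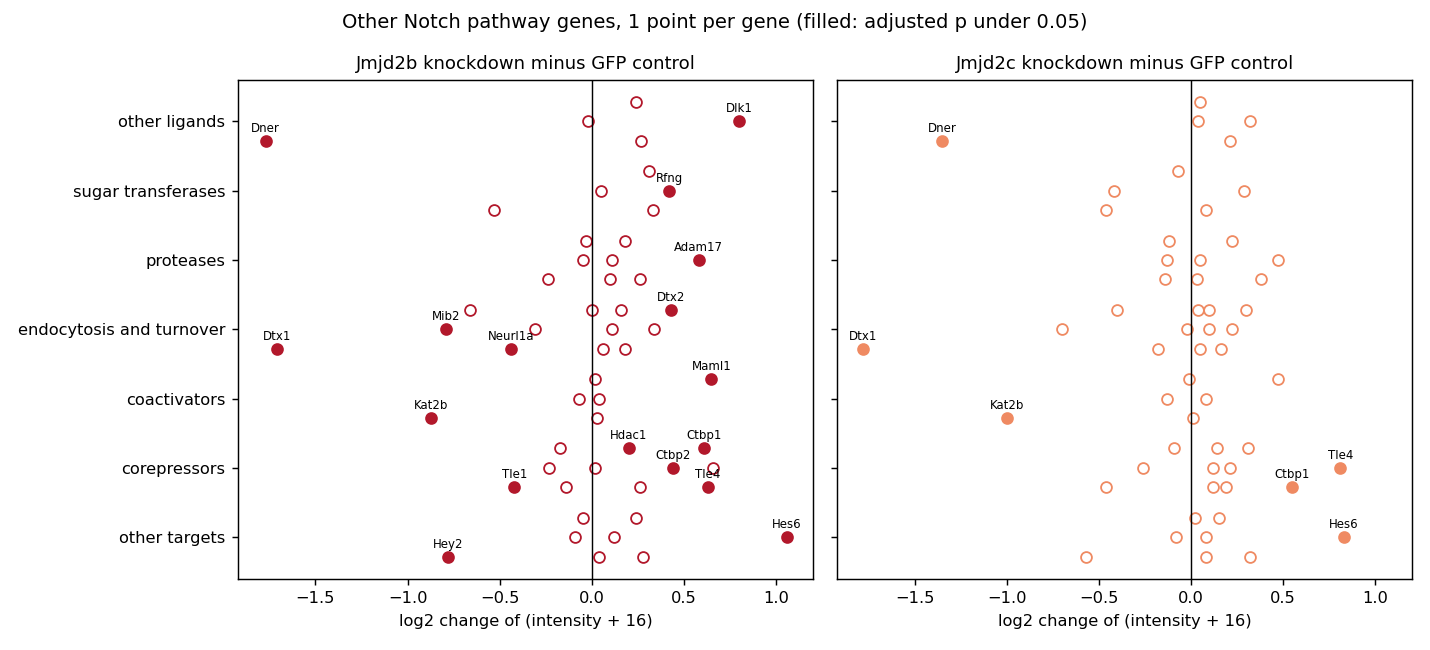
Log2 change of the 55 other measured pathway genes (horizontal axis, 1 point per gene) by role, in the Jmjd2b knockdown (left) and the Jmjd2c knockdown (right), each minus the GFP hairpin control. Filled, named points passed an adjusted p under 0.05, 17 in the left panel and 6 in the right, and Dner, Dtx1, Kat2b, Ctbp1, Tle4 and Hes6 are the 6 named on the right.

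For the 5 called members above the median level, the genes with the most similar pattern over all 8 arrays were found by Pearson correlation of log2 values, as a description and without a test. The closest were Wbp1l (0.994), Tmbim4 (0.993) and Rc3h2 (0.992) for Notch2, Dgat2 (0.998), Zfp207 (0.996) and Bysl (0.992) for Notch3, and L1td1 (0.991), Pou3f1 (0.985) and Cxxc1 (0.985) for Jag1. For Dll3 they were Arhgef26 (0.992), Zbtb33 (0.990) and Polr1e (0.989), and for Rbpj Zswim1 (0.992), Lrmp (0.989) and Acadm (0.986). These are the highest of 9096 genes above the median level, and the arrays share their groups, so values near 1 arise easily.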

How the data were processed

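The unit of the authors' deposited table is array intensity, not on a log scale, with 1 value for each probe set and array, and per the labels' protocols biotinylated cRNA was made from total RNA. Probe summary, background correction and scaling by the authors are not given in the sources used here. Of 45101 probe sets 34945 had exactly 1 gene symbol in the platform annotation. Gene names and chromosomes came from RefSeq (GRCm38.p6). Values were not normalized further, dim genes were kept, and log2(value + 16) was fitted over 18193 genes (limma 3.58.1, R 4.3.3, eBayes with a trend, all 8 arrays, two-sided, Benjamini-Hochberg, threshold 0.05). The number of arrays limits the precision. The scripts were tested on simulated data. Tables used Python 3.11.15 and pandas 2.3.3, figures matplotlib 3.10.9.

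The members, lists and alternatives were chosen with earlier results of these data known. The text names all 10 members, up to 10 called pathway genes per comparison by smallest p, and the 3 genes most alike to each called member above the median level. The hairpin targets and the most abundant marker per cell type were also to be named. Hey2, Hes5, Nrarp, Adam17, Rfng, Hdac1, Tle1 and the other single markers were named after their values were seen. Each probe set was also tested on its own, an alternative chosen after seeing the data.

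Deviations of same-numbered Jmjd2b knockdown and control arrays from their group means correlated at 0.176, 0.111 and 0.116 across genes. Those of differently numbered arrays of these groups correlated at -0.127 to 0.0164. Jmjd2b knockdown array 3 and Jmjd2c knockdown array 1, with different numbers, correlated at 0.166. With only 2 Jmjd2c knockdown arrays, the value with array 2 is the mirror image, -0.166, so it says little about pairing. No label states a pairing, and the reported fit used no block. The replicate number entered as a block only in an alternative fit.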

Additional observations from a re-analysis of the deposited data

How the results depend on the processing

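The 6 calls of members in the Jmjd2b knockdown held under pseudocounts of 4 and 64, quantile normalization, the mean of all probe sets, no trend, the replicate block and array type as a block. Exceptions were Notch3 without probe sets that can detect related genes, Notch4 with sets of arrays that share values as a block, the fits within array types, and the further probe sets other than 1 of Jag1 and 1 of Rbpj. With only genes above the median level Notch4 was not tested. The replicate block changed no call of a member in the Jmjd2b knockdown. Within array types 1 and 0 members, 4 and 0 other pathway genes and 1138 and 99 of all genes were called, in fits with fewer arrays. With the shared-value sets as a block 9 other pathway genes were called. With 1 array left out, 6 to 7 members, 8 to 21 other pathway genes and 2624 to 5615 of all genes were called.

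In the Jmjd2c knockdown 1 member was called with the mean of all probe sets, 1 with quantile normalization and 1 with the replicate block, in each fit Notch2, and 0 to 3 with 1 array left out. Deviations of the 2 Jmjd2c knockdown arrays from their mean are mirror images of each other. Correlations with same-numbered arrays (0.0422 and 0.064 for controls, -0.0596 and 0.141 for the Jmjd2b knockdown) therefore cannot decide whether the numbers pair them. Other pathway genes called were 10 with only genes above the median level, 2 with only the compared groups, 0 with shared-value sets as a block, 0 within the type without a floor, and 2 to 10 with 1 array left out. Of all genes 874 were called with only the compared groups, 1043 with array type as a block, 6 with shared-value sets as a block, 0 within the type without a floor, and 462 to 2919 with 1 array left out. The set block takes its contrast with controls through Jmjd2b knockdown arrays.

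Between the knockdowns 136 genes were called at a pseudocount of 64, 145 with the replicate block, 2 with only the compared groups, 4 with array type as a block, 5 with shared-value sets as a block, 0 within the type without a floor, and 2 to 788 with 1 array left out. With 1 array left out 0 to 1 members were called (Rbpj, 0.56, without Jmjd2c knockdown array 2).

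Among the 10 members, changes that turned their sign were all of uncalled results. Of the other pathway genes named, the called Dlk1 also turned its sign (-0.13 without probe sets that can detect related genes, in the Jmjd2b knockdown). Hes1 in the Jmjd2b knockdown was 0.14 with array type as a block, 0.34 with the shared-value sets, 0.40 within the type with a floor, and -0.24 to 0.30 with 1 array left out. Its values with the shared-value sets were 0.58 in the Jmjd2c knockdown and 0.24 between the knockdowns. Dll1 ranged from -0.61 to 0.02 in the Jmjd2b knockdown, from -0.69 to 0.46 in the Jmjd2c knockdown and from -0.46 to 0.68 between them with 1 array left out. It was 0.08 in the Jmjd2c knockdown with the replicate block, and between the knockdowns -0.67 with shared-value sets and -0.04 within the type without a floor. Notch1 in the Jmjd2c knockdown ranged from -0.37 to 0.10, and Notch4 between the knockdowns from -0.24 to 0.66, with 1 array left out. Further probe sets gave 0.03 for Notch4 in the Jmjd2c knockdown, and between the knockdowns -0.05 for Notch1, 0.33 for Notch2 and 0.01 for Notch3, the last also without probe sets that can detect related genes. The causes were not tested.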
